A study of Mus musculus with 6 samples.

Results

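Of 697 lentiviral lineage barcodes called in single cells and nuclei of the PB3 mouse mammary tumour line, 59 marked lineages that were common in untreated whole cells and lay mainly in the authors' cluster 1 there. A barcode counted as a member when its latest deposited call was found in 10 or more untreated whole cells and when cluster 1 was the most frequent cluster of those cells. This gave 61 of the 103 barcodes with 10 or more untreated cells, and bc14-55-bc30-23349 and bc14-6-bc30-93034, with 14 and 15 untreated cells, were then left out by name. These barcodes marked 4597 and 667 of the 6725 barcoded cells left after 4 eribulin rounds, so leaving them out fixes part of the low late shares described below. The members were therefore chosen by their number and cluster in untreated whole cells, and those values are given as a description only. A single member, bc14-29-bc30-67687, was tied, with 7 of its 18 untreated cells in cluster 1, 7 in cluster 5 and 4 in cluster 6.

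All conditions used barcoded PB3 cells, labelled as mammary tumour. Run 1 gave whole cells after 4 eribulin rounds (ERI4 cells) and untreated whole cells (UNT cells), and run 3 gave nuclei of the same treatments (ERI4 nuclei and UNT nuclei). Run 2 gave whole cells after 1, 2 or 3 rounds of eribulin (ERI1, ERI2, ERI3) and of paclitaxel (PAC1, PAC2, PAC3), with hashtag oligos marking the 3 conditions pooled within each drug's library. Each eribulin round was 500 nM for 72 h followed by 48 h of recovery, while paclitaxel was given at 100 nM for 72 h in its first round and at 250 nM later. The labels of the paclitaxel library also give a recovery of 48 h. They state no recovery after the last paclitaxel round of PAC2 and no length of it in PAC1 and PAC3. Every condition is 1 library or 1 hashtag of a library, so the spread between cultures is unknown and no test was made. Shares carry exact Clopper-Pearson 95% intervals in parentheses, which cover counting error only, as do the limits for a count of 0, set at 3 cells.

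Eribulin blocks the growing ends of microtubules and paclitaxel stabilises microtubules, and both arrest dividing cells in mitosis. A lentiviral barcode is a designed sequence that integrates into the genome and is copied into every daughter cell, so cells with the same barcode are read as 1 lineage. When a mixed population is treated, the barcodes found afterwards show which lineages still have cells. A share among barcoded cells falls when a lineage loses cells and also when other lineages multiply, and these cannot be told apart here, since no absolute cell numbers were at hand. A lineage that took up several barcodes can count as several members.

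The barcodes of the members that carried most cells before or after treatment are shown first, because every result below follows these sequences. Each is 48 bases long, with a part of 14 bases (bc14, in capitals), the 4 bases tggt shared by all called barcodes, and a part of 30 bases (bc30).
bc14-30-bc30-58918: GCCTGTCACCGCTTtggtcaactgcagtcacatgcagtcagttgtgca
bc14-22-bc30-14328: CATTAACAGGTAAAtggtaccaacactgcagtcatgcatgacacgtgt
bc14-50-bc30-60095: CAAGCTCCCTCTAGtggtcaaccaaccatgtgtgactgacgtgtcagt
bc14-21-bc30-28628: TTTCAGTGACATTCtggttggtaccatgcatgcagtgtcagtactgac
bc14-69-bc30-89668: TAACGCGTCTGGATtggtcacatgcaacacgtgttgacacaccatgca
bc14-36-bc30-56638: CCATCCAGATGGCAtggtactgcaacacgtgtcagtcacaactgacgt
bc14-36-bc30-3590: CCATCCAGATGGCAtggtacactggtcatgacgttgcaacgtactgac
bc14-16-bc30-28768: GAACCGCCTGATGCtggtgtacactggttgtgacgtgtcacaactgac
bc14-61-bc30-63448: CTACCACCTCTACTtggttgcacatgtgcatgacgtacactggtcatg
bc14-2-bc30-46691: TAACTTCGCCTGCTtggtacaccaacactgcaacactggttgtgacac
bc14-71-bc30-66188: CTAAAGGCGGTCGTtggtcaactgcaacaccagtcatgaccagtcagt
bc14-29-bc30-67687: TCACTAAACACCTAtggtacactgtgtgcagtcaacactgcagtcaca

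A sequence was found for all 59 members in the deposited feature reference. They used 40 different bc14 parts, and 30 members shared a bc14 part with another member, as bc14-36-bc30-56638 and bc14-36-bc30-3590 do. All 59 bc30 parts differed, and none of them was called with a different bc14 part. The closest pair of members differed at 18 of 48 bases, and the closest member to any other called barcode at 10. The GC content of the members lay between 43.75% and 56.25%, with a median of 50%, which was also the median of the other 44 barcodes with 10 or more UNT cells.

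The deposited table holds between 848 (PAC2) and 11061 (UNT cells) cells a condition. Cells with a single called barcode, here called barcoded cells, numbered 1356 in ERI1, 882 in ERI2, 2215 in ERI3, 6725 in ERI4 cells, 1792 in PAC1, 569 in PAC2, 2286 in PAC3 and 5087 in UNT cells, and 1495 in ERI4 nuclei and 4935 in UNT nuclei. Median depth was 11266.5 to 20877 UMIs (counted RNA molecules) in the whole-cell conditions and 2089 and 3427.5 UMIs in ERI4 and UNT nuclei. Pairs of libraries shared 0 to 134 cell barcodes, and in none of the 15 pairs did a shared cell barcode carry the same member lineage in both libraries.

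In UNT cells the members made up 2374 of 5087 barcoded cells, 46.7% (45.3 to 48.0). Their sizes ran from 10 cells to 262 cells with a median of 20. The 3 most frequent, bc14-30-bc30-58918 with 262 cells, bc14-22-bc30-14328 with 250 and bc14-50-bc30-60095 with 205, held 30.2% of the members' cells, and 29 members with under 20 cells together held 452. In all, 88.9% (87.5 to 90.1) of the members' UNT cells lay in cluster 1, 4.09% in cluster 5 and 3.07% in cluster 6. By lineage the cluster 1 share ran from 38.9% to 100%, it was at least 80% in 43 members, and 5 members (bc14-5-bc30-59042, bc14-96-bc30-27973, bc14-1-bc30-45250, bc14-11-bc30-15086 and bc14-52-bc30-59099) had every UNT cell there. At the size threshold, bc14-52-bc30-59099 and bc14-99-bc30-60522 had 10 UNT cells, and 7 further lineages led by cluster 1 had 9 and were not members. Among those 7, bc14-38-bc30-7217 was found in 20 ERI1 and 44 PAC1 cells. The threshold bears on all late shares: with a minimum of 5 UNT cells, 107 lineages met the rule, and they held 36.1% of ERI2, 45.6% of ERI3, 17.1% of ERI4 cells and 50.8% of PAC3.

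The lineages differed in RNA content and in pseudotime (the authors' ordering of cells along a path that starts at untreated cells) although most lay in the same cluster. Median UMIs per cell ran from 13913 in bc14-13-bc30-26145 to 37610 in bc14-37-bc30-59849, with 10 members at 30000 or more. The members with the most cells were also apart, with medians of 32094 UMIs in bc14-30-bc30-58918, 30200 in bc14-22-bc30-14328 and 18701 in bc14-50-bc30-60095. Among the cells that an earlier revision of the barcode call had already given the same barcode, the medians of these 3 lineages were 30420, 27983.5 and 18720.5 UMIs. In bc14-37-bc30-59849, by contrast, 4 of 19 cells had that earlier call, and their median was 21954 UMIs. Median pseudotime ran from 4.54 in bc14-13-bc30-26145 to 10.7 in bc14-36-bc30-56638, and was 10 or more in 7 members. More than 1 barcode was detected in 85.9% (84.5 to 87.3) of the members' UNT cells and in 88.8% (87.6 to 89.96) of the other barcoded UNT cells, and how the authors picked 1 of several is not given in the sources used here.

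Nuclei of untreated cells, captured in another run, played no part in choosing the members and held nearly all of them. In UNT nuclei 58 of 59 members were found, where 99% of all 103 barcodes with 10 or more UNT cells were found. The exception was bc14-54-bc30-82882, with 24 UNT cells and 0 of 4935 barcoded UNT nuclei, which allows a share of up to 0.0608%. The members made up 34.4% (33.1 to 35.7) of barcoded UNT nuclei and 46.7% of barcoded UNT cells, and 13 of 59 had a higher share in nuclei. Having 10 or more cells in the UNT cell library was a condition for membership, and its part in this gap was not tested. Under the same minimum, the 28 other lineages led by UNT cluster 5 made up 22.5% of UNT cells and 21.6% of UNT nuclei. The 13 led by cluster 6 made up 9.89% and 8.00%. Over the 59 members, the number of nuclei and the number of cells gave a Pearson's r of 0.912 and a Spearman's rho of 0.741, as a description over lineages that share their 2 libraries.

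The lineage with the most UNT cells, bc14-30-bc30-58918, was carried by 100 UNT nuclei, against 185 for bc14-22-bc30-14328 and 117 for bc14-50-bc30-60095. For bc14-30-bc30-58918 this count depended on the barcode call. The first revision called it in 258 UNT nuclei, 4.73% of the nuclei called, and the latest call left 159 of these without a barcode. For bc14-22-bc30-14328 and bc14-50-bc30-60095 the latest call kept all 184 and 113 nuclei of that revision.

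In these nuclei the members differed from the lineages led by cluster 5 and from those led by cluster 6, in partly different clusters. Summed over lineages, most nuclei lay in cluster 0, with 68.7% (66.5 to 70.9) of the members' nuclei, 69.3% (66.4 to 72.0) of those of the 28 other lineages led by UNT cluster 5 and 55.7% (50.6 to 60.7) of those of the 13 led by cluster 6. Cluster 1, however, held 16.4% (14.6 to 18.2) of the members' nuclei, against 3.00% (2.06 to 4.21) for the lineages led by cluster 5 and 8.10% (5.61 to 11.2) for those led by cluster 6. Cluster 5 held 1.35% (0.861 to 2.02) of the members' nuclei, against 10.4% (8.64 to 12.4) for the lineages led by cluster 5. Of 49 members with 10 or more UNT nuclei, 40 had more nuclei in cluster 1 than in cluster 5, 8 had equal numbers and 1 had fewer, while 20 of 27 lineages led by cluster 5 had more nuclei in cluster 5. By this count the lineages led by cluster 6 were like the members, with 8 of 11 higher in cluster 1, 3 equal and 0 lower. They differed in cluster 6, which held 1.83% (1.24 to 2.58) of the members' nuclei, against 19.5% (15.7 to 23.7) for the lineages led by cluster 6.

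RNA content and pseudotime of the lineages were also related between the libraries. Over the 49 members with 10 or more UNT nuclei, the median UMIs in nuclei and in cells gave r of 0.574 (rho 0.535), and median pseudotime gave r of 0.603 (rho 0.504), as descriptions over lineages from the same 2 libraries. Median UMIs were 5032 in the 100 nuclei of bc14-30-bc30-58918 and 4276 in the 185 of bc14-22-bc30-14328, both among the deep lineages in cells, against 3378 in bc14-50-bc30-60095. Median pseudotime was highest, at 16.5, in bc14-30-bc30-58918, bc14-50-bc30-60095 and bc14-55-bc30-68976, each of which had a median of 10.7 in UNT cells.

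Over rounds of eribulin the members' share dropped at the second round. They made up 374 of 1356 barcoded ERI1 cells, 27.6% (25.2 to 30.0), 25 of 882 in ERI2, 2.83% (1.84 to 4.16), and 23 of 2215 in ERI3, 1.04% (0.659 to 1.55). The share of ERI2 was 9.73 times lower than that of ERI1 (6.55 to 14.5, counting error only), and that of ERI3 was 2.73 times lower than that of ERI2 (1.56 to 4.78). Leaving out 2 lineages by name bears on these ratios. With them added back, the shares were 35.6% in ERI1, 5.10% in ERI2 and 39.8% in ERI3. Run 2 has no untreated library, so the 46.7% of UNT cells is a level from another run. The number of members found was 29 of 59 in ERI1, where 56.3% of all 103 barcodes with 10 or more UNT cells were found, then 15 in ERI2, where 28.2% were found, and 10 in ERI3, where 29.1% were found. The members' shares found, 49.2%, 25.4% and 16.9%, lay near that background in ERI1 and ERI2 and below it in ERI3.

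A few lineages made up most of what was left after 1 eribulin round. The 3 most frequent held 55.9% of the members' ERI1 cells and the 7 most frequent 77.5%, and they were not the lineages that led in UNT cells. Barcode bc14-21-bc30-28628 was carried by 100 ERI1 cells, 7.37% (6.04 to 8.90), where it made up 1.77% (1.43 to 2.17) of UNT cells. It then fell to 3 ERI2 cells, 0.340% (0.0702 to 0.991), and was in 4 ERI3 cells, 0.181% (0.0492 to 0.462). Its share in ERI2 was 21.7 times lower than in ERI1 (6.90 to 68.2).

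Barcode bc14-69-bc30-89668 followed, with 56 ERI1 cells, 4.13% (3.13 to 5.33), 5 ERI2 cells, 0.567% (0.184 to 1.32), and 3 ERI3 cells, 0.135% (0.0279 to 0.395), and it made up 1.71% (1.37 to 2.10) of UNT cells. It was the only member with 5 or more ERI2 cells, and no member had 5 or more in ERI3. Other members with at least 2 ERI3 cells were bc14-51-bc30-85760, bc14-71-bc30-66188 and bc14-2-bc30-7735 with 3 each, and bc14-6-bc30-94927 and bc14-29-bc30-86374 with 2 each. Chosen after its values were seen, bc14-48-bc30-83724 had 4 ERI1 and 4 ERI2 cells. Barcode bc14-36-bc30-56638 was carried by 53 ERI1 cells, 3.91% (2.94 to 5.08), by 1 ERI2 cell and by 0 of 2215 in ERI3 (limit 0.135%). It made up 0.354% (0.210 to 0.559) of UNT cells, with 18 cells, of which the first revision gave 2 the same barcode. Next came bc14-16-bc30-28768 with 31 ERI1 cells, bc14-61-bc30-63448 with 24, bc14-18-bc30-19605 with 14 and bc14-29-bc30-67687 with 12, each with 0 or 1 cell in ERI2 and in ERI3. All 12 ERI1 cells of bc14-29-bc30-67687 had 2 or more detected barcodes and none had this barcode in the first revision, so its count there is 0 under either restriction, as is that of its 4 PAC2 cells.

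The largest untreated lineages were nearly absent after 1 eribulin round. Barcode bc14-30-bc30-58918, with 5.15% (4.56 to 5.79) of UNT cells, was found in 0 of 1356 in ERI1 (limit 0.221%) and in 0 ERI2 and 0 ERI3 cells. Barcode bc14-50-bc30-60095, with 4.03% (3.51 to 4.61) of UNT cells, was likewise in 0 ERI1, 0 ERI2 and 0 ERI3 cells. Barcode bc14-22-bc30-14328, with 4.91% (4.34 to 5.54) of UNT cells, was in 3 ERI1 cells, 0.221% (0.0457 to 0.645), 1 ERI2 cell and 0 ERI3 cells. Among the other frequent members, bc14-55-bc30-68976 was in 3 ERI1 cells, bc14-52-bc30-92557 in 4, bc14-75-bc30-57211 in 4, and bc14-55-bc30-6980 and bc14-40-bc30-47831 in 5 each.

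Over rounds of paclitaxel the members' share was lower at the start and dropped later. They made up 213 of 1792 barcoded PAC1 cells, 11.9% (10.4 to 13.5), 43 of 569 in PAC2, 7.56% (5.52 to 10.0), and 21 of 2286 in PAC3, 0.919% (0.570 to 1.40). The share of PAC2 was 1.57 times lower than that of PAC1 (1.15 to 2.15). That of PAC3 was 8.23 times lower than that of PAC2 (4.92 to 13.8). Both ratios depend on the 2 lineages left out by name. Counted with these lineages, the PAC1 share was 26.7%, the PAC2 share 14.4% and the PAC3 share 8.14%. The members found numbered 28 of 59 in PAC1, 14 in PAC2 and 10 in PAC3, or 47.5%, 23.7% and 16.9%, where 51.5%, 28.2% and 19.4% of all 103 barcodes with 10 or more UNT cells were found. These counts lie near the background.

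Barcode bc14-36-bc30-56638 led the members in each of the first 2 paclitaxel rounds. It was carried by 54 PAC1 cells, 3.01% (2.27 to 3.91), by 13 PAC2 cells, 2.28% (1.22 to 3.88), and by 4 PAC3 cells, 0.175% (0.0477 to 0.447), against 0.354% of UNT cells. Barcode bc14-69-bc30-89668 was in 23 PAC1 cells, 1.28% (0.815 to 1.92), 7 PAC2 cells, 1.23% (0.496 to 2.52), and 0 PAC3 cells. Barcode bc14-71-bc30-66188 was in 17 PAC1 cells, 0.949% (0.554 to 1.51), 2 PAC2 cells and 3 PAC3 cells. Only bc14-36-bc30-56638 and bc14-69-bc30-89668 had 5 or more cells in PAC2, and only bc14-43-bc30-75462, with 5 cells, had so many in PAC3. Barcodes bc14-18-bc30-19605 and bc14-36-bc30-3590 had 2 cells each in PAC2 and in PAC3, and bc14-29-bc30-67687 and bc14-29-bc30-86374 had 4 and 3 in PAC2. The largest untreated lineage, bc14-30-bc30-58918, was in 1 PAC1 cell, 1 PAC2 cell and 0 PAC3 cells, while bc14-22-bc30-14328, bc14-50-bc30-60095 and bc14-52-bc30-92557 were in 10 PAC1 cells each.

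After 1 round some members found under both drugs had unequal shares, while the numbers found under 1 drug alone lay near the background. The members' share was 27.6% in ERI1 and 11.9% in PAC1, a ratio of 2.32 (1.99 to 2.70, counting error only). With the 2 lineages left out by name added back, the shares were closer, at 35.6% and 26.7%. Of the 59 members, 19 were found in both, 10 in ERI1 and not in PAC1, 9 in PAC1 and not in ERI1, and 21 in neither, and the last 21 held 383 UNT cells. These are 32.2%, 16.9%, 15.3% and 35.6% of the members, near the 37.9%, 18.4%, 13.6% and 30.1% of all 103 barcodes with 10 or more UNT cells. The share of bc14-21-bc30-28628 was 7.37% in ERI1 and 0.614% in PAC1, from 100 and 11 cells, a ratio of 12.0 (6.47 to 22.3). Likewise bc14-61-bc30-63448 was in 24 ERI1 and 3 PAC1 cells, a ratio of the shares of 10.6 (3.19 to 35.0), and bc14-16-bc30-28768 in 31 and 4, a ratio of 10.2 (3.62 to 28.9). For bc14-69-bc30-89668 the ratio was 3.22 (1.99 to 5.20). For bc14-36-bc30-56638, with 53 ERI1 and 54 PAC1 cells, the ratio was 1.30 (0.894 to 1.88), an interval that holds equal shares.

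Other members were found under paclitaxel alone after 1 round. Barcode bc14-2-bc30-46691 was in 0 ERI1 and 13 PAC1 cells, bc14-50-bc30-60095 in 0 and 10, and bc14-37-bc30-59849 in 0 and 7, and the ERI1 limit of 0.221% lies below their PAC1 shares of 0.725% (0.387 to 1.24), 0.558% (0.268 to 1.02) and 0.391% (0.157 to 0.803). For bc14-37-bc30-59849 this limit lies inside the PAC1 interval. The exact upper bound for 0 ERI1 cells, 0.272%, also reaches the interval of bc14-50-bc30-60095. Conversely, bc14-29-bc30-73180 was in 7 ERI1 and 0 PAC1 cells, bc14-51-bc30-85760 in 6 and 0, and bc14-40-bc30-47831 in 5 and 0. The exact upper bound for 0 PAC1 cells is 0.206%. It lies inside the ERI1 intervals of bc14-51-bc30-85760 (0.1625 to 0.961) and bc14-40-bc30-47831 (0.120 to 0.858). After 2 rounds the order of the drugs turned, with 2.83% of ERI2 and 7.56% of PAC2, a ratio of 0.375 (0.232 to 0.607). After 3 rounds it was 1.04% of ERI3 and 0.919% of PAC3, a ratio of 1.13 (0.627 to 2.04). These ratios depend on leaving out 2 lineages by name. With them added back, the shares were 5.10% of ERI2 and 14.4% of PAC2, and 39.8% of ERI3 and 8.14% of PAC3. Drug, dose, library and the labelled recovery after the last round differ together between the drugs and cannot be told apart.

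After 4 eribulin rounds no member was found in whole cells. The count was 0 of 6725 barcoded ERI4 cells, for which the limit is 0.0446%. No fold against UNT cells is given, because the rule chose the members on their UNT cells and left out by name 2 lineages that, added back, bring the share of ERI4 cells to 78.3%. Of all 103 barcodes with 10 or more UNT cells, 4.85% were found in ERI4 cells. In ERI4 nuclei, 8 of 1495 barcoded nuclei carried a member, 0.535% (0.231 to 1.05), against 34.4% of UNT nuclei from the same run. Leaving out the 2 lineages by name fixes part of this gap too, so no fold is given here either. With the 2 lineages added back the share was 39.1% of ERI4 nuclei and 35.0% of UNT nuclei. The 8 nuclei belonged to 7 members, where 21.4% of all 103 barcodes were found in ERI4 nuclei, and only bc14-43-bc30-75462 had 2 nuclei. These 8 nuclei had a median of 9149 UMIs, against 3051 in the other barcoded ERI4 nuclei, and the first revision of the call gave 3 of them the same barcode, 3 another barcode and 2 none. Of the 1487 other barcoded ERI4 nuclei, that revision gave 317 the same barcode, 616 another and 543 none. Changed calls were thus not particular to the members. With all calls of that revision, including its own choice of members, the share was 0.0942% of 4245 called ERI4 nuclei.

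Members were followed to the cluster they lay in after treatment, which the rule did not use. In ERI1, 90.1% (86.6 to 92.9) of their cells lay in cluster 7, against 92.7% (90.9 to 94.2) of the other barcoded cells, and in ERI2 20 of 25 did, against 90.9% (88.8 to 92.7) of the others. All 24 ERI1 cells of bc14-61-bc30-63448 and 93 of the 100 of bc14-21-bc30-28628 lay there. Cluster 1 held 16 of the members' 374 ERI1 cells, 4.28% (2.47 to 6.85), and these made up 16 of the 19 barcoded ERI1 cells of that cluster, 10 of them from bc14-36-bc30-56638. Median pseudotime was 13.5 in the members' ERI1 cells and 13.6 in the others.

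In PAC1 the members lay more often in cluster 1, their own leading cluster in UNT cells, than other cells did. Cluster 1 held 69 of their 213 PAC1 cells, 32.4% (26.2 to 39.1), against 5.64% (4.55 to 6.89) of the other barcoded PAC1 cells, 3.33% (1.09 to 7.61) for the lineages led by cluster 6 and 0 of 109 cells for those led by cluster 5. Lineages led by other clusters also had PAC1 cells in their own, with 24.8% (17.0 to 34.0) in cluster 5 for those led by cluster 5 and 89.3% (83.3 to 93.8) in cluster 6 for those led by cluster 6. Of the members' 69 cells, 28 belonged to bc14-36-bc30-56638, 8 to bc14-50-bc30-60095 and 6 to bc14-2-bc30-46691, and 15 members had at least 1. Without bc14-36-bc30-56638 the share was 25.8% (19.2 to 33.3). Cluster 6, the main PAC1 cluster, held 36.6% (30.1 to 43.5) of the members' cells, against 36.3% (33.9 to 38.7) of the others, and 55.9% with members and cells taken from the first revision of the call. Cluster 9 held 2.82% (1.04 to 6.03), against 27.3% (25.1 to 29.6). It also held only 2 of 109 cells for the lineages led by cluster 5 and 1 of 150 for those led by cluster 6. A low share of cluster 9 is thus not particular to the members. The members' PAC1 cells were also deeper, with a median of 13774 UMIs, against 11353 in the others, and the part of depth in these shares was not tested.

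In PAC2 the members' cells were mostly in the cluster that held nearly all ERI1 and ERI2 cells. Cluster 7 held 33 of 43, 76.7% (61.4 to 88.2), against 34.8% (30.7 to 39.0) of the other barcoded PAC2 cells, and cluster 9 held 0 of 43, against 44.9% (40.6 to 49.2). The same held for the lineages led by cluster 5, with 11 of 13 in cluster 7 and 1 in cluster 9, and in part for those led by cluster 6, with 9 of 17 and 0, so this is not particular to the members. Barcodes bc14-36-bc30-56638 and bc14-69-bc30-89668 had 9 of 13 and 7 of 7 PAC2 cells in cluster 7, and without bc14-36-bc30-56638 the share of cluster 7 was 80% (61.4 to 92.3). Median pseudotime was 13.8 in the members, 13.6 in the lineages led by cluster 5, 13.9 in those led by cluster 6 and 20.6 in all barcoded cells that were not members. By phase, set from the deposited scores as G1 where neither score was above 0, 60.5% (44.4 to 75.02) of the members' PAC2 cells were called G1, against 36.5% (32.4 to 40.8) of the others, 46.2% (19.2 to 74.9) for the lineages led by cluster 5 and 58.8% (32.9 to 81.6) for those led by cluster 6. In ERI1 the G1 shares were 32.9% (28.1 to 37.9) and 31.0% (28.1 to 33.9). Phase calls also read depth and free RNA and are given as calls only.

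The few member cells after 3 rounds often had more than 1 detected barcode. In ERI3, 13 of 23 did, 56.5% (34.5 to 76.8), against 9.31% (8.12 to 10.6) of the other barcoded cells. In PAC3, 10 of 21 did, 47.6% (25.7 to 70.2), against 11.7% (10.5 to 13.1). Among lineages led by cluster 6, 27 of 38 PAC3 cells did, 71.1% (54.1 to 84.6), and among those led by cluster 5, 25.2% (18.6 to 32.6) of ERI3 cells did. The shares were close in the earlier rounds, with 21.9% (17.8 to 26.5) of the members' ERI1 cells against 26.4% (23.6 to 29.3) of the others, and 21.6% (16.3 to 27.7) against 22.4% (20.3 to 24.5) in PAC1. The first revision of the barcode call named 12 of the 23 ERI3 cells and 10 of the 21 PAC3 cells Doublet. The median barcode count was 2 in the ERI3 cells of the members and of the lineages led by cluster 5, and 6 in all barcoded ERI3 cells that were not members.

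Among late cells with exactly 1 detected barcode, members made up 10 of 1998 in ERI3, 0.501%, and 11 of 2010 in PAC3, 0.547%. Of those 10 ERI3 cells, 7 lay in cluster 2, which also held 12 of all 23. In PAC3, cluster 2 held 7 of all 21 member cells but 0 of the 11 with 1 detected barcode, and 48.7% (46.6 to 50.7) of the other barcoded PAC3 cells. Of the 5 PAC3 cells of bc14-43-bc30-75462, 2 lay in cluster 8 and 1 each in clusters 1, 2 and 7, and 4 had 1 detected barcode. The 4 ERI3 cells of bc14-21-bc30-28628 all lay in cluster 2, and 2 of them had 1 detected barcode. What part doublets or misassigned hashtags play in these late cells was not tested.

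Lineages led by other untreated clusters kept other shares at the second eribulin round. The 28 other lineages led by cluster 5 stood at 24.7% (22.4 to 27.1) in ERI1, 33.1% (30.0 to 36.3) in ERI2 and 7.18% (6.14 to 8.33) in ERI3, so that the ratio of ERI2 to ERI1 was 1.34 (1.17 to 1.53), against 0.103 (0.0692 to 0.153) for the members. These lineages also held 1.74% (1.44 to 2.08) of ERI4 cells, with 113 of these 117 cells in 1 lineage. The members had 0 there, but the 2 lineages left out by name, added back, bring their share to 78.3%. Under paclitaxel their shares were 6.08% (PAC1), 2.28% (PAC2) and 0.131% (PAC3). The 13 lineages led by cluster 6 made up 3.39% of ERI1, 0 of 882 barcoded ERI2 cells and 0 of 6725 ERI4 cells, while their paclitaxel shares were 8.37% (PAC1), 2.99% (PAC2) and 1.66% (PAC3). The ratio of PAC3 to PAC2 was 0.122 (0.0727 to 0.203) for the members and 0.556 (0.316 to 0.978) for the lineages led by cluster 6. The members' ratio depends on leaving out 2 lineages by name. With them added back, the shares were 14.4% in PAC2 and 8.14% in PAC3. These differences were set side by side and not tested, as each condition has 1 library. A single lineage held 124 of the 292 ERI2 cells of those led by cluster 5, and 1 lineage held 104 of their 159 ERI3 cells. For those led by cluster 6, 1 lineage held 24 of the 38 PAC3 cells.

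Over all treated conditions, 43 of 59 members were found in at least 1, and 16 members, with 293 UNT cells in all, in none. The 72.9% found lies near the 78.6% of all 103 barcodes with 10 or more UNT cells. Barcodes bc14-21-bc30-28628, bc14-69-bc30-89668 and bc14-71-bc30-66188 were the 3 found in ERI1, ERI2 and ERI3, 5.08% of the members, where 15.5% of all 103 were. In PAC1, PAC2 and PAC3 alike 6 members were found, 10.2%, where 12.6% of all 103 were. Of the 11 members with 50 or more UNT cells, 9 were found in ERI1 and 8 in PAC1, against 11 and 10 of the 29 members with under 20 UNT cells. Rarer lineages are more easily missed at these numbers of cells, so a count of 0 in a small lineage says less than in bc14-30-bc30-58918.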

How the data were processed

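The submitters' processing notes and the design text name Cell Ranger (3.1.0 in run 1, 4.0.0 in run 2), Cell Ranger ARC (1.0.0, nuclei), all with the mm10 reference, and Seurat 3.1.4 for filtering and clustering. Pseudotime came from Monocle3 0.2.1. The authors' table of 51785 cells was used, with no gene matrix. Its deposited counts are UMIs, genes and barcodes per cell, its deposited percent column is the mitochondrial share, and its deposited score columns are phase scores and pseudotime, all without further normalization.

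Barcode names of all 4935 barcoded UNT nuclei lack 2 hyphens in the table (bc1422-bc3014328) and were respelled. Every nucleus has at least 1 barcode feature, so 1 was subtracted there. A tie went to the lower cluster number. Doublets were handled through the deposited calls only. Intervals of ratios are log-normal approximations. Named barcodes were the 10 largest members, those with 5 or more cells in a treated condition or 2 or more in a late one, and the extremes of the cluster 1 share; others named were chosen after their values were seen. Members and lists were chosen with earlier results of these data known. Scripts ran in Python 3.11.15 with pandas 2.3.3, NumPy 2.4.6 and SciPy 1.17.1, and the choice of members and the intervals were tested on simulated data.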

Additional observations from a re-analysis of the deposited data

Results flagged for a closer look

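With 1 library a condition, changes from round 1 to round 2 and from round 1 to round 3 were compared between the drugs for each member and for 4 medians, 126 comparisons in all, and 9 went in opposite directions. For a lineage, each change had to reach 0.1 percentage points of barcoded cells. The 126 include the 16 members found in no treated condition, which could not reach it. None of these differences was tested.

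From round 1 to round 2 the share of bc14-16-bc30-28768 fell by 2.29 points under eribulin but was 0.128 points higher under paclitaxel, with 4 PAC1 and 2 PAC2 cells. That of bc14-29-bc30-67687, whose ERI1 and PAC2 cells all had 2 or more detected barcodes, fell by 0.885 and was 0.145 higher, and that of bc14-29-bc30-86374 fell by 0.664 and was 0.416 higher. For bc14-55-bc30-68976 it fell by 0.108 and was 0.352 higher, and for bc14-75-bc30-87979 it fell by 0.221 and was 0.184 higher. In the order named, these last 4 lineages had 10, 2, 0 and 3 PAC1 cells and 4, 3, 2 and 2 PAC2 cells. From round 1 to round 3 the share of bc14-43-bc30-75462 fell by 0.295 points under eribulin but was 0.107 points higher under paclitaxel, with 2 PAC1 and 5 PAC3 cells. For each of these lineages the counting intervals of the paclitaxel shares compared overlap.

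In ERI2 the members' median mitochondrial share fell by 0.379 percentage points relative to ERI1, and it was 0.120 higher in PAC2 than in PAC1. In round 3 it was 0.547 higher in ERI3 than in ERI1 and in PAC3 it fell by 0.184 relative to PAC1. Median pseudotime was 0.228 higher in ERI2 than in ERI1 and in PAC2 it fell by 2.77 relative to PAC1. The members' PAC1 cells lay mainly in clusters 6 and 1 and their PAC2 cells mainly in cluster 7, and its part in that median was not tested.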

How the results depend on the processing

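Over 27 summed shares, counts of members found and leading-cluster shares, 82 of 145 values under alternatives kept within the counting interval (for counts, within 1.5 times). The order ERI1 above ERI2 above ERI3, and PAC1 above PAC2 above PAC3, held with the first revision, 1 detected barcode, the common UMI window, a minimum of 20 UNT cells, at least 80% in cluster 1 and all cells as denominator. With a minimum of 5 UNT cells, which adds 48 lineages, bc14-95-bc30-33662 with 8 UNT cells and 719 ERI4 cells among them, neither order held. With the named lineages added back, the paclitaxel order held and the eribulin order did not. No paired analysis was possible because every condition has 1 library. Causes of the shifts below were not tested, except where the alternative itself adds or removes members.

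The first revision, with 41 members, 39 of them shared, gave summed shares of 22.7% in ERI1, 0.517% in ERI3, 9.05% in PAC1, 5.36% in PAC2, 50.9% in UNT cells, 0.0942% in ERI4 nuclei and 28.8% in UNT nuclei. It found 18 members in PAC1, 5 in PAC3 and 3 in ERI4 nuclei, and put 55.9% of PAC1 cells in cluster 6 and 5.26% of PAC3 cells in cluster 2. A minimum of 5 UNT cells (107 members) gave 41.8% in ERI1, 36.1% in ERI2, 45.6% in ERI3, 17.1% in ERI4 cells, 29.5% in PAC1, 31.8% in PAC2, 50.8% in PAC3, 53.0% in UNT cells, 43.6% in ERI4 nuclei and 42.0% in UNT nuclei. A minimum of 20 (30 members) gave 20.6% in ERI1, 7.37% in PAC1, 3.87% in PAC2, 37.8% in UNT cells and 27.4% in UNT nuclei. At least 80% in cluster 1 (43 members) gave 22.3% in ERI1, 0.542% in ERI3, 9.21% in PAC1, 39.0% in UNT cells and 27.2% in UNT nuclei. The named lineages added back gave 35.6% in ERI1, 5.10% in ERI2, 39.8% in ERI3, 78.3% in ERI4 cells, 26.7% in PAC1, 14.4% in PAC2, 8.14% in PAC3 and 39.1% in ERI4 nuclei.

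With exactly 1 detected barcode the shares were 0.501% in ERI3, 0.547% in PAC3, 52.4% in UNT cells and 35.8% in UNT nuclei, with 6 members in PAC3 and 2 in ERI4 nuclei. Under the same setting, chosen for clusters after seeing the data, cluster 0 held 66.0% of UNT nuclei and cluster 2 held 0 of 11 PAC3 cells. The common UMI window gave 45.2% in UNT cells and 0.164% in ERI4 nuclei, with 7 members in ERI2, 9 in PAC2 and 1 in ERI4 nuclei. Equal draws of 569 barcoded cells gave an expected 4.72 members in ERI3, 4.14 in PAC3 and 2.90 in ERI4 nuclei. Over all cells rather than barcoded ones, the shares were 20.1% in ERI1, 7.27% in PAC1, 5.07% in PAC2, 21.5% in UNT cells, 0.0918% in ERI4 nuclei and 17.1% in UNT nuclei. With the names as spelled in the table, added after seeing the data, UNT nuclei gave 0%. The stated filter without cluster 13 moved no summed share out of its interval.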
